A study of Danio rerio with 14 samples.

Results

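M510F01, a metabolite of the fungicide boscalid, was compared with solvent in zebrafish larvae at 96 hours post fertilization (hpf). Zebrafish of the wild-type strain AB were kept from 3 hpf in M510F01 at 0.03 µg/L or in the solvent dimethyl sulfoxide (DMSO) at 0.01% by volume, with the medium renewed each day, and RNA was taken from whole eleutherolarvae, the hatched stage that still lives on yolk. Boscalid at 0.03 µg/L was the third group of the series and is used here only where a difference from the parent compound was tested. The series has 14 samples, and its tables hold 4 libraries of each group, so 4 M510F01 libraries were set against 4 DMSO libraries. The fifth sample of M510F01 and the fifth of boscalid were not analysed here. The comparison covers 23193 of 36351 genes, those whose normalized counts averaged 10 or more over the 8 libraries. A normalized count is the number of reads of a gene divided by 1 size factor per library. A further 9946 genes had a read in some library and lay below that limit. Nothing in the labels says whether replicates came from separate clutches, tanks or pools, so a p-value measures only the spread between these samples. Whole larvae are a mixture of tissues, in which fewer cells of a type and less RNA per cell cannot be told apart.

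Boscalid acts on succinate dehydrogenase, complex II of the mitochondrial respiratory chain, which passes electrons from the citric acid cycle to ubiquinone. Larvae of this age meet a dissolved chemical through skin, gills and gut. A chemical that enters the tissue is commonly met by cytochrome P450 enzymes and by conjugating enzymes of liver and intestine, many of them under the aryl hydrocarbon receptor (AhR) or pregnane X receptor. Injured or inflamed larval tissue is known to switch on AP-1 transcription factors, cytokines, their socs feedback inhibitors and matrix metalloproteinases within hours.

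Reads assigned to genes numbered 13728285 in the shallowest and 15730847 in the deepest library. Markers of the larval tissues looked for, from liver, gut and pancreas to muscle, blood, nerve, eye, skin, cartilage, pigment and white blood cells, were all above the limit in these libraries. The ovary genes zp3b and gdf9 were not, with at most 9.59 normalized counts. The first principal component of the 8 libraries held 32.7% of the variance and did not part the groups. Its lowest scores were those of DMSO replicate 1 (-29.7) and M510F01 replicate 1 (-29.3), and its highest those of M510F01 replicate 4 (38.4) and DMSO replicate 3 (36.6). The second held 23.3% and set DMSO replicate 4 (-49.4) apart from the other 7 libraries, which lay between -8.53 and 28.1. DMSO replicate 4 also had the highest value of all 8 libraries for 18.8% of the genes. M510F01 replicate 1 was close to it, at 17.4%, and DMSO replicate 3 was at 13.7%. Where leaving out DMSO replicate 3 or 4 moved a printed estimate or list median by more than 1.5 times, the value without it is given too. Estimates within 0.1 of 0 are excepted.

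No gene passed an adjusted p of 0.05 with M510F01 (0% of the genes tested; limma, smallest adjusted p = 0.9998). EdgeR and DESeq2 on the recovered reads also called 0 genes. Unadjusted p-values under 0.05 were found by limma for 837 genes, of which 350 had positive estimates (1.51% of the genes tested) and 487 negative ones (2.1%). By edgeR there were 852 such genes (3.67%) and by DESeq2 821 (3.54%). All M510F01 libraries lay above all DMSO libraries for 260 genes (1.12%) and below them for 246 (1.06%). All gene values that follow are therefore given as estimates without a call, and each named gene has a limma adjusted p of 0.9998. "Apart" below means that the 2 groups of libraries did not overlap.

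The precision of 4 against 4 libraries sets what could be seen. The 95% confidence interval of the log2 fold change, M510F01 over DMSO, reached a median of 0.33 to either side of the estimate. It lay wholly within a 2-fold change in either direction for 93.0% of genes and wholly within a 1.5-fold change for 69.6%. For the 2604 genes with a mean of 1000 or more the share within 1.5-fold was 90.7%, and for the 4806 genes with means between 10 and 50 it was 16.04%. The central 90% of estimates ran from -0.35 to 0.30. Estimates beyond 2-fold were found for 13 genes on the higher and 54 on the lower side. DMSO replicate 4 was the highest of the 8 libraries in 41 of those 54 (75.9%), and DMSO replicate 3 the lowest of the DMSO libraries in 35 (64.8%; 29.2% of all genes tested).

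**Figure D1:**
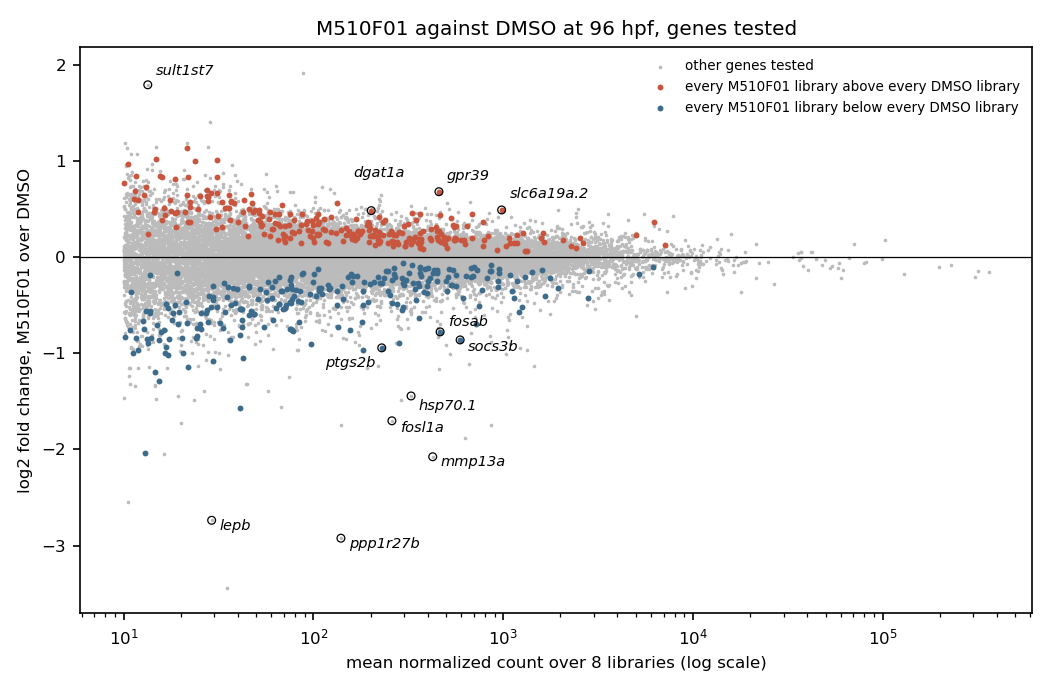
Log2 fold change of M510F01 over DMSO (vertical axis) against the mean normalized count over 8 libraries (log scale) for each of the 23193 genes tested. Coloured points are the 260 genes with every M510F01 library above and the 246 with every M510F01 library below the DMSO libraries, and the lowest labelled point is ppp1r27b at -2.92.

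Genes linked to injury and inflammation were among those with negative estimates. Fosl1a (LL0000010568), an AP-1 subunit, had 84.0, 128, 129 and 81.3 normalized counts in M510F01 replicates 1 to 4, and 303, 462, 122 and 762 in DMSO replicates 1 to 4. The M510F01 libraries were close together, while DMSO replicate 3 lay among them and the other DMSO libraries above. The log2 fold change was -1.70 (SE 0.45, 95% interval -2.70 to -0.71). Fosab (LL0000010566), a fos gene of the immediate early response, had 344, 348, 276 and 374 with M510F01 and 477, 606, 428 and 865 with DMSO. The groups were apart, with DMSO replicate 3 nearest to the M510F01 libraries, at -0.78 (SE 0.20). Egr2a, a zinc finger factor of the same response, was also apart, at 18.0 ± 5.25 with M510F01 and 41.0 ± 19.9 with DMSO (SD, n = 4 each; -1.08, SE 0.31).

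Feedback inhibitors of cytokine signalling and a cyclooxygenase also had negative estimates, with DMSO replicate 4 the highest library. Among them DMSO replicate 3 was the lowest control for socs3b only. Socs3b (LL0000029137), which blocks JAK kinases downstream of interleukin-6 type receptors, had 353, 484, 419 and 364 normalized counts with M510F01 and 546, 825, 509.9 and 1240.3 with DMSO. The groups were apart by the small gap between M510F01 replicate 2 and DMSO replicate 3 (-0.86, SE 0.24, interval -1.39 to -0.33). Its paralogue socs3a stood at 858, 1118, 889 and 1013 with M510F01 and at 1078, 1556, 1364 and 2153 with DMSO, overlapping at 1 library of each group (-0.63, SE 0.18). Ptgs2b (LL0000022841), a cyclooxygenase that makes prostaglandins, had 108, 156, 189.8 and 151 with M510F01 and 247, 210.5, 244 and 526 with DMSO. Its groups were apart, at -0.94 (SE 0.27, interval -1.53 to -0.36), and at -0.65 without DMSO replicate 4.

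The ligands were lower in level than the socs3 genes and ptgs2b, and il1b and lepb were also more scattered. Il1b, the inflammatory cytokine interleukin-1 beta, had 15.2, 26.3, 38.3 and 27.4 normalized counts with M510F01 and 52.4, 78.1, 31.5 and 269 with DMSO (-1.56, SE 0.53). DMSO replicate 4 was more than 3 times as high as the next library, and the estimate was -0.96 without it. The chemokine gene cxcl18b was at 19.7 ± 2.36 with M510F01 and 37.0 ± 11.96 with DMSO (SD, n = 4 each; -0.82, SE 0.26). Lepb (LL0000013604), a leptin gene known in zebrafish for its induction in injured fin and heart, had 2.02, 5.05, 1.92 and 4.56 with M510F01. It had 35.6, 70.9, 0.984 and 112 with DMSO, so that 3 DMSO libraries stood far above all M510F01 libraries and DMSO replicate 3 below them (-2.74, SE 1.01, interval -4.96 to -0.52). Without DMSO replicate 3 lepb was at -4.004 (SE 0.44), and without DMSO replicate 4 at -2.06 (SE 1.02).

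Mmp13a, mmp9 and timp2b act on the extracellular matrix; mmp13a was named from the list, mmp9 and timp2b after their values were seen. Mmp13a, a collagenase, had 69.8, 151, 159 and 57.5 normalized counts with M510F01 and 284, 532, 101 and 2045 with DMSO (-2.08, SE 0.79). Mmp9, a gelatinase, had 276, 341, 357 and 222 with M510F01 and 821, 995, 334 and 3534 with DMSO (-1.75, SE 0.58). The metalloproteinase inhibitor timp2b had 187, 206, 169 and 199 with M510F01 and 397, 1357, 197 and 2291 with DMSO (-1.88, SE 0.66). In each of these genes DMSO replicate 3 lay within the range of the M510F01 libraries and DMSO replicate 4 was the highest. Without DMSO replicate 4 the estimates were -1.32 for mmp13a, -1.14 for mmp9 and -1.31 for timp2b, and without DMSO replicate 3 they were -2.76, -2.27 and -2.49.

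The largest estimates belonged to ppp1r27b and to the locus si:ch73-187m15.4. Ppp1r27b, a gene of the protein phosphatase 1 regulatory subunit family, had 22.3, 14.1, 16.3 and 10.96 normalized counts with M510F01 and 80.0, 308, 13.8 and 650.4 with DMSO (-2.92, SE 0.99). Locus si:ch73-187m15.4 had 7.09, 6.06, 0 and 4.56 with M510F01 and 79.0, 79.2, 5.91 and 97.8 with DMSO (-3.44, SE 0.87). Again 3 DMSO libraries were high, and DMSO replicate 3 was at the level of the M510F01 libraries. These 2 features, like lepb, were picked for mention once their values had been seen.

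The whole list of inflammatory effectors and cytokines had 53 genes, of which 40 passed the filter. Of these, 4 had positive and 36 negative estimates, with a median log2 fold change of -0.35, where 51.3% of all genes tested were positive and their median was 0.0044. An unadjusted limma p under 0.05 was found for 15, all negative, against 2.1% of all genes on that side. On the lower side 3 were apart, against 1.06% of all genes. DMSO replicate 4 was the highest of the 8 libraries for 28 of the 40. Among the DMSO libraries it was highest for 29, while DMSO replicate 3 was lowest for 18 and DMSO replicate 1 for 15. The median over the list of each library's log2 deviation was between -0.42 and -0.0275 in the M510F01 libraries. In the DMSO libraries it was between -0.0283 and 0.59, so the 2 groups overlapped narrowly. Leaving out 1 library moved the list's median between -0.46 (without M510F01 replicate 2) and -0.22 (without DMSO replicate 4), so it stayed below that of all genes in those 8 fits. The immediate early and AP-1 list, 50 genes tested, had 11 positive estimates and a median of -0.17. It had 13 unadjusted limma p-values under 0.05, all negative, against 2.1% of all genes on that side. Its genes apart on the lower side numbered 4, against 1.06% of all genes. Socs3b belongs to both lists and is counted in each, so their counts are not separate results. DMSO replicate 4 was the highest of the 8 libraries for 23 of the 50. Its median was -0.23 when DMSO replicate 3 was left out and -0.13 when DMSO replicate 4 was.

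**Figure D2:**
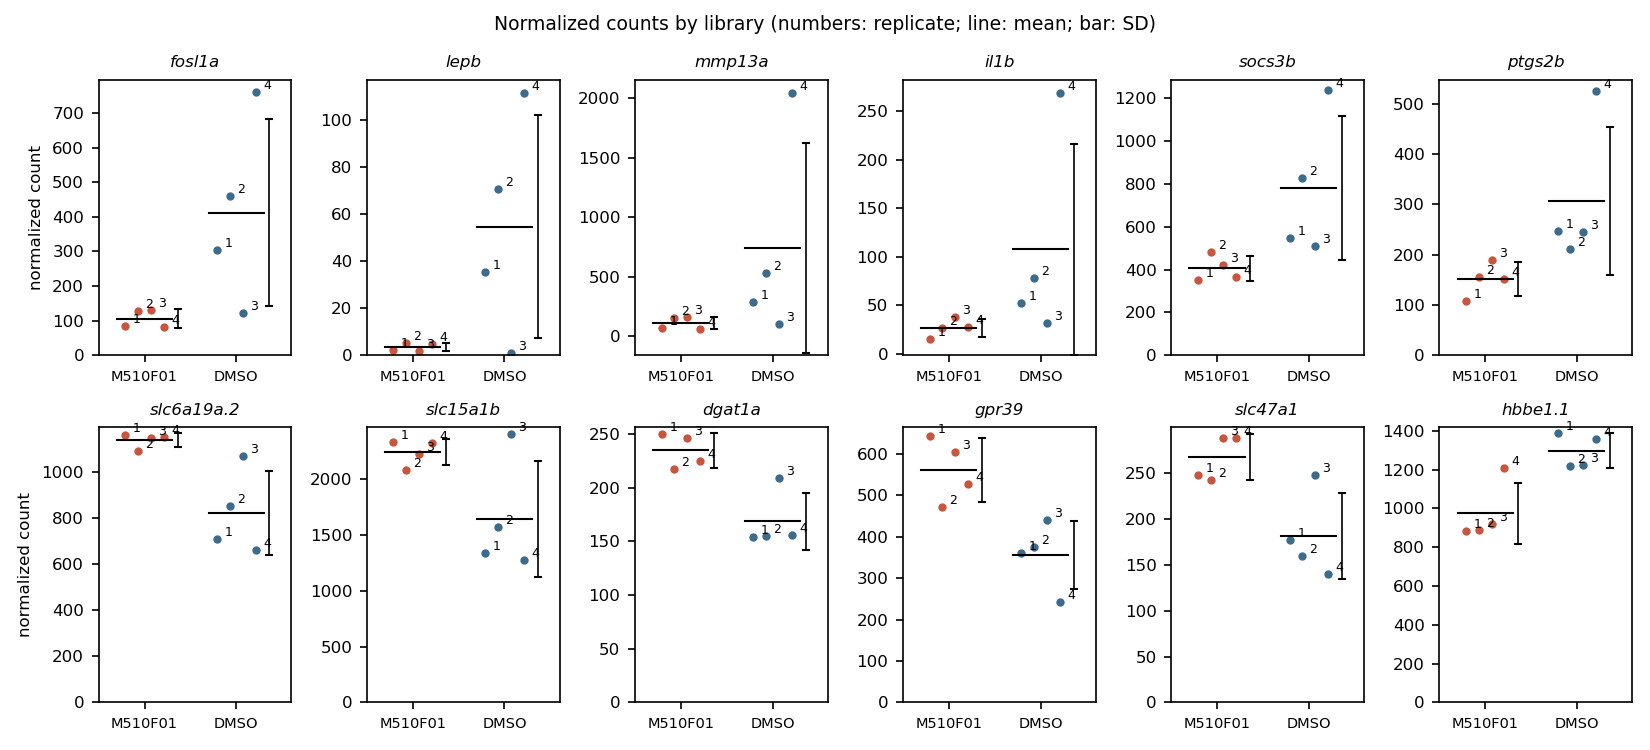
Normalized counts of 12 genes in each M510F01 and DMSO library, with the replicate number beside each point, the mean as a line and the SD as a bar; the vertical scales differ between genes. In the upper row DMSO replicate 4 is the highest library in every panel and DMSO replicate 3 lies near or among the M510F01 libraries, except for ptgs2b, where DMSO replicate 2 is the lowest control; in the lower row DMSO replicate 3 is the highest control except for hbbe1.1.

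White blood cell genes had a negative list median as well, with library medians that also overlapped between the groups. Of 42 neutrophil and macrophage genes 35 were tested, with 7 positive estimates and a median of -0.23, which was -0.14 without DMSO replicate 4. An unadjusted p under 0.05 was found for 4, all negative, against 2.1% of all genes on that side. Some of them, such as il1b and mmp13a, also stand in the inflammatory list. The library medians of this list lay between -0.33 and 0.12 in the M510F01 libraries and between -0.11 and 0.46 in the DMSO libraries, highest in DMSO replicate 4, which was the highest of 8 libraries for 25 of the 35. The neutrophil peroxidase gene mpx averaged 225 with M510F01 and 273 with DMSO, and the macrophage gene mpeg1.1 142 with M510F01 and 160 with DMSO (n = 4 each). The other markers looked at were lyz, lysozyme of neutrophils, at 50.3 with M510F01 and 51.0 with DMSO, and marco, a scavenger receptor of macrophages, at 35.5 with M510F01 and 45.8 with DMSO (n = 4 each). Ncf1, a subunit of the phagocyte oxidase, was at -0.50 (SE 0.22) and the myeloid transcription factor cebpa at -0.31 (SE 0.14). The part of the number of white blood cells in the inflammatory values was not tested.

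Genes named by the smallest p-values on this side included receptors and a gene named for an immune ligand. Gpr84, a receptor for medium-chain fatty acids on phagocytes, had 34.4, 70.7, 31.6 and 33.8 normalized counts with M510F01 and 71.1, 99.0, 65.9 and 187 with DMSO (-1.24, SE 0.34). The groups overlapped only through M510F01 replicate 2. P2ry6, a receptor for uracil nucleotides, was apart at 137 ± 6.93 with M510F01 and 226 ± 69.1 with DMSO (SD, n = 4 each; -0.67, SE 0.19). Hhla2a.2, named for a human immune checkpoint ligand, was apart at 66.8 ± 17.4 with M510F01 and 126 ± 35.6 with DMSO (SD, n = 4 each; -0.90, SE 0.23).

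Several humoral defence and antiviral genes also had negative estimates. Complement component c3a.2 had 410.0, 449.8, 645 and 455 normalized counts with M510F01 and 704, 1203, 578 and 992 with DMSO (-0.79, SE 0.22), and M510F01 replicate 3 overlapped DMSO replicate 3. Its paralogue c3a.1 was at -0.44 (SE 0.17), the complement factor gene cfb at -0.63 (SE 0.21) and c7a, of the membrane attack complex, at -0.56 (SE 0.22). The complement and acute phase list nevertheless had 17 positive among 33 tested and a median of 0.0010, which ran from -0.18 (without M510F01 replicate 3) to 0.06 (without M510F01 replicate 1). In the interferon list 4 of 23 tested were positive (median -0.14, and -0.28 without DMSO replicate 2), and 2 had an unadjusted p under 0.05, both negative, against 2.1% of all genes on that side. Stat1b, a transcription factor of interferon signalling, was at 95.2 ± 47.6 with M510F01 and 152 ± 36.2 with DMSO (SD, n = 4 each; -0.81, SE 0.36), and M510F01 replicate 4 alone was at 35.6; the estimate was -0.40 without it. Of the finTRIM genes, a fish family related to antiviral TRIM proteins, only 35 of 70 passed the filter (12 positive, median -0.10, and -0.05 without M510F01 replicate 2). Ftr63 was apart at 35.4, 35.4, 44.1 and 48.4 with M510F01 and 53.4, 76.1, 62.0 and 84.0 with DMSO (-0.73, SE 0.19). Ftr85 was apart as well (-0.53, SE 0.18).

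Most genes of protein folding and cell death lay on the same side. Hsp70.1, an inducible chaperone, had 124, 134, 157 and 87.6 normalized counts with M510F01 and 175, 367, 139 and 1431 with DMSO (-1.44, SE 0.63), and its estimate was -0.75 without DMSO replicate 4. The chaperone and stress genes of the endoplasmic reticulum hspa5, hsp90b1, pdia4 and pdia6 were at -0.37, -0.38, -0.36 and -0.40 (SE 0.14 to 0.16). Hspa5 was at -0.23 without DMSO replicate 4 and pdia6 at -0.25 without M510F01 replicate 1. Trib3, a pseudokinase of the integrated stress response, was apart at 543, 546, 592 and 798 with M510F01 and 811, 833, 803 and 1054 with DMSO (-0.51, SE 0.14). Atf3, a transcription factor induced by stress, was at 334 ± 51.9 with M510F01 and 589.6 ± 317 with DMSO (SD, n = 4 each; -0.70, SE 0.28), and at -0.37 without DMSO replicate 4. Of 35 unfolded protein response genes tested 9 were positive (median -0.13, and -0.06 without M510F01 replicate 1). Of 45 heat shock genes also 9 were positive (median -0.08, and -0.16 without M510F01 replicate 4), among them hspb15 at 0.35 (SE 0.16). The executioner caspase gene casp6 was apart at 219.7, 287, 256 and 209 with M510F01 and 315, 319, 334 and 423 with DMSO (-0.52, SE 0.14). The death receptor gene fas (-0.56, SE 0.24, and -0.31 without DMSO replicate 4) was apart by a very small gap. This lay between 41.1 normalized counts in M510F01 replicate 4 and 41.3 in DMSO replicate 3. The initiator caspase gene casp8 (-0.56, SE 0.18) overlapped. Diabloa, a mitochondrial protein that blocks inhibitors of caspases, was at 0.42 (SE 0.18). The p53 and apoptosis list had 11 positive of 40 tested (median -0.12, and -0.04 without DMSO replicate 4), with DMSO replicate 4 highest of 8 for 21 genes.

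Of the 28 lists plotted, the intestine list had the highest median. Slc6a19a.2 (LL0000028836), of the family of intestinal and renal transporters of neutral amino acids, had 1159, 1093, 1148 and 1152 normalized counts with M510F01 and 708, 851, 1071 and 663 with DMSO. All M510F01 libraries lay above all DMSO libraries, DMSO replicate 3 being the nearest (0.49, SE 0.14, interval 0.19 to 0.79). Its tandem neighbour slc6a19a.1 was at 455, 384, 488 and 502 with M510F01 and 372, 328, 412 and 243 with DMSO (0.45, SE 0.16), and at 0.30 without DMSO replicate 4; reads of so close a pair may be split between them. The peptide transporter gene slc15a1b (LL0000028498) had 2336, 2082, 2229 and 2325 with M510F01 and 1336, 1572, 2404 and 1281 with DMSO (0.49, SE 0.17). Here DMSO replicate 3 was the highest of all 8 libraries, and the estimate was 0.69 without it and 0.39 without DMSO replicate 4.

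Triacylglycerol synthesis genes stood near them. Dgat1a (LL0000008852), which joins the last fatty acid to diacylglycerol, had 250.0, 217, 246 and 225 normalized counts with M510F01 and 154, 155, 209 and 156 with DMSO. The groups were apart, and 3 DMSO libraries lay within a span of 3 counts below DMSO replicate 3 (0.48, SE 0.13, interval 0.21 to 0.76). Dgat2, which catalyses the same step, was at 0.33 (SE 0.16), and the fatty acid transporter cd36 at 0.36 (SE 0.19), which was 0.55 without DMSO replicate 3 and 0.23 without DMSO replicate 1. Elovl2, which elongates polyunsaturated fatty acids, was apart at 355, 388, 381 and 397 with M510F01 and 287, 291, 329 and 213 with DMSO (0.46, SE 0.13). The whole list of fatty acid and triacylglycerol genes had 28 positive of 47 tested and a median of 0.03, from 0.0011 (without M510F01 replicate 4) to 0.10 (without DMSO replicate 3). Of the 47, 2 genes were apart on the higher side, against 1.12% of all genes. Dgat1a, among them, also belongs to the intestine list and is counted there too.

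Other genes with the smallest p-values on the positive side were receptors, transporters and enzymes. Gpr39 (LL0000011637), a receptor activated by zinc, had 644, 471, 604 and 527 normalized counts with M510F01 and 362, 376, 441 and 242 with DMSO (0.68, SE 0.17, interval 0.30 to 1.06). The groups were apart, and the estimate was 0.51 without DMSO replicate 4. The drug and cation extruder slc47a1 had 248, 243, 289 and 288 with M510F01 and 177, 159, 248 and 140.3 with DMSO, overlapping through DMSO replicate 3 (0.59, SE 0.16). Slc22a7b.3, of the organic anion transporter family, was at 70.5 ± 9.88 with M510F01 and 44.0 ± 9.46 with DMSO (SD, n = 4 each; 0.68, SE 0.19).

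Several further genes of that group were apart on the higher side. Adamtsl2, a secreted matrix protein, was at 0.57 (SE 0.17), the synaptic vesicle GTPase gene rab3b at 0.41 (SE 0.11) and pi4k2b, a phosphatidylinositol kinase, at 0.41 (SE 0.11). Pank1a, a pantothenate kinase that starts the synthesis of coenzyme A, was at 0.33 (SE 0.10), and faxdc2, of the fatty acid hydroxylase domain family, at 0.37 (SE 0.11). Cyp4t8, a cytochrome P450 of family 4, overlapped through DMSO replicate 3, at 250.2 ± 18.8 with M510F01 and 181 ± 39.0 with DMSO (SD, n = 4 each; 0.49, SE 0.14).

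In the intestine list 50 of 54 genes were tested, with 40 positive estimates and a median of 0.27. An unadjusted p under 0.05 was found for 9, all positive, against 1.51% of all genes on that side, and 2 were apart on the higher side, against 1.12%. The library medians of the list were 0.07, 0.03, 0.21 and 0.21 in M510F01 replicates 1 to 4 and -0.38, -0.20, 0.26 and -0.29 in DMSO replicates 1 to 4. DMSO replicate 3 thus had the highest list median of all, and it was the highest of 8 for 20 of the 50 genes. The list median was 0.39 without DMSO replicate 3 and 0.20 without DMSO replicate 4. The exocrine pancreas list had 24 positive of 30 tested and a median of 0.16, with the elastases ela2 and ela2l at 0.34 (SE 0.22) and 0.36 (SE 0.26). Without DMSO replicate 4 these were 0.17 for ela2 and 0.15 for ela2l, and without DMSO replicate 3 ela2l was at 0.55. Its median was 0.32 without DMSO replicate 3 and 0.03 without DMSO replicate 4. An amylase gene, zgc:66313 (listed as amy2al1 by RefSeq), was apart on the lower side, at 10.1, 8.09, 11.5 and 11.9 with M510F01 and 25.7, 13.5, 17.7 and 34.01 with DMSO (-0.99, SE 0.30).

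**Figure D3:**
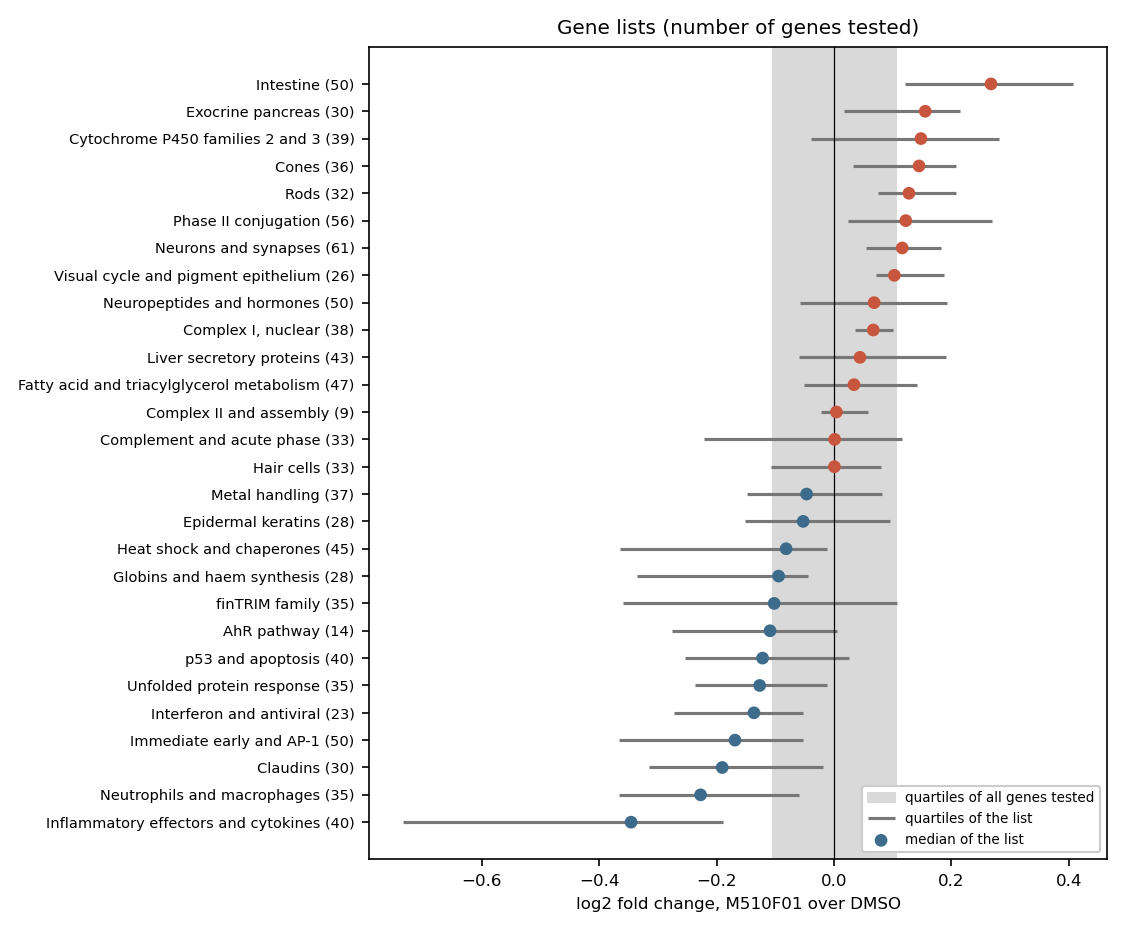
Median log2 fold change of M510F01 over DMSO (points) with quartiles (lines) for 28 gene lists, with the number of genes tested in brackets; the grey band spans the quartiles of all genes tested, -0.10 to 0.11. The inflammatory list lies lowest at -0.35 and the intestine list highest at 0.27.

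Biotransformation genes outside family 1 had small positive medians. The cytochrome P450 families 2 and 3 had 27 positive of 39 tested (median 0.15, and 0.08 without DMSO replicate 1 or 0.24 without DMSO replicate 3). Cyp2x8 was at 104, 115, 151 and 119 normalized counts with M510F01 and 65.2, 56.3, 108 and 94.6 with DMSO (0.62, SE 0.21), and cyp2k8 was at -0.66 (SE 0.29, and -0.41 without DMSO replicate 4). Cyp3a65, a family 3 enzyme of larval gut and liver, was at 0.34 (interval -0.18 to 0.87), at 0.63 without DMSO replicate 3 and at 0.16 without DMSO replicate 1. Its M510F01 libraries spanned 2201 to 2695 and its DMSO libraries 1339 to 3507, so that the M510F01 range lay inside that of the controls. Of 56 conjugating enzymes tested 44 were positive (median 0.12, 0.05 without DMSO replicate 1 and 0.21 without DMSO replicate 3), and 2 had an unadjusted p under 0.05, both positive, against 1.51% of all genes on that side. The sulfotransferase sult1st3 had 236, 226, 288 and 310.4 with M510F01 and 133, 166, 256 and 156 with DMSO (0.60, SE 0.19). Gstm.2, a glutathione transferase, was apart by less than 1 count, at 65.6 ± 1.42 with M510F01 and 50.5 ± 11.3 with DMSO (SD, n = 4 each; 0.40, SE 0.17). The largest estimate was 1.79 for sult1st7, with an interval from -0.02 to 3.61. It rested on 6.07, 12.1, 26.8 and 32.9 with M510F01 and 0, 9.38, 17.7 and 2.13 with DMSO. Without DMSO replicate 1 the sult1st7 estimate was 1.02. The conjugating enzyme gene ugt1b4 went the other way. With 1 library left out its estimate ran from -1.04 (without DMSO replicate 3, SE 0.35) to -0.41 (without DMSO replicate 4, SE 0.31). Among liver secretory proteins 27 of 43 tested were positive (median 0.04, from -0.10 without M510F01 replicate 3 to 0.17 without M510F01 replicate 1), with the lipid carrier apoea at 0.45 (SE 0.20) and the haem scavenger hpxa at 0.86 (SE 0.37).

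Nerve and eye lists had narrow positive medians. Of 61 neuronal and synaptic genes 54 were positive, with a median of 0.12, which was 0.03 without DMSO replicate 4, the lowest of the 8 libraries for 47 of these genes. Ddc, which makes dopamine and serotonin, was apart at 333 ± 17.0 with M510F01 and 268 ± 33.6 with DMSO (SD, n = 4 each; 0.32, SE 0.11). Of the rod genes 28 of 32 were positive (median 0.13, 0.04 without DMSO replicate 4 and 0.23 without DMSO replicate 3), with the phosphodiesterase subunit pde6a at 0.30 (SE 0.12). Of the cone genes 28 of 36 were positive (median 0.14, 0.03 without DMSO replicate 4 and 0.24 without M510F01 replicate 2). The visual cycle and pigment epithelium list had 24 positive of 26 (median 0.10, 0.06 without DMSO replicate 4 and 0.21 without DMSO replicate 3), with rdh14b, a retinol dehydrogenase, apart at 0.27 (SE 0.10).

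Hormone and mechanosensory lists with medians near 0 held some genes with separate groups. Urp2, a urotensin-related peptide of spinal neurons that contact the cerebrospinal fluid, had 39.5, 38.4, 43.1 and 36.5 normalized counts with M510F01 and 28.7, 21.9, 28.5 and 25.5 with DMSO (0.58, SE 0.17, apart). The stress peptide gene crhb was at 0.43 (SE 0.17) and trh, for thyrotropin-releasing hormone, at 0.48 (SE 0.19). Prl, the pituitary hormone prolactin, was apart on the lower side at 64.8, 59.6, 62.3 and 38.3 with M510F01 and 74.1, 111, 66.9 and 143 with DMSO (-0.77, SE 0.25). The list of neuropeptides and hormones had 34 positive of 50 (median 0.07, from 0.02 without M510F01 replicate 4 to 0.13 without DMSO replicate 3). Of the 50, 3 were apart on the higher and 1 on the lower side, against 1.12% and 1.06% of all genes. Unadjusted limma p-values under 0.05 numbered 4 on the higher and 2 on the lower side, against 1.51% and 2.1% of all genes. In hair cells, tmc2b (LL0000030412), a channel subunit of mechanotransduction, had 31.4, 36.4, 32.6 and 20.1 with M510F01 and 58.3, 50.01, 52.2 and 48.9 with DMSO. Each DMSO library exceeded each M510F01 library by more than 12 counts (-0.81, SE 0.20, interval -1.25 to -0.36). The related TMC1 was also apart (-0.49, SE 0.15), whereas the hair cell list had 17 positive of 33 tested and a median of 0.00066, and cib2, a partner of these channels, was at 0.25 (SE 0.13).

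Of the blood and skin lists, the globin and claudin lists had mostly negative estimates and the keratin list was mixed. Hbbe1.1 (LL0000011956), an embryonic beta globin, had 881, 887, 918 and 1208 normalized counts with M510F01 and 1389, 1219, 1222 and 1359 with DMSO. The groups were apart by the gap between M510F01 replicate 4 and DMSO replicate 2 (-0.42, SE 0.12, interval -0.68 to -0.17). Klf1, the erythroid transcription factor, was apart at 14.2, 10.1, 6.71 and 13.7 with M510F01 and 26.7, 19.8, 17.7 and 28.7 with DMSO (-1.02, SE 0.29). Alas2, the first enzyme of haem synthesis in red cells, was at -0.33 (SE 0.20, and -0.14 without M510F01 replicate 3), and slc25a37, the iron importer of their mitochondria, at -0.26 (SE 0.10). The globin and haem list had 3 positive of 28 tested and a median of -0.09, from -0.19 to -0.08 with 1 library left out. Tp63, the transcription factor of basal skin cells, was apart at 293 ± 31.0 with M510F01 and 401 ± 57.5 with DMSO (SD, n = 4 each; -0.45, SE 0.13). The tight junction genes cldna (-0.35, SE 0.14) and cldn11a (-0.42, SE 0.15) belonged to a claudin list with 8 positive of 30 tested. Cldna was apart by the small gap between 106 in M510F01 replicate 3 and 108 in DMSO replicate 1. The claudin median was -0.19, and -0.12 without DMSO replicate 4, the highest of the 8 libraries for 15 of the 30. The keratin list had 12 positive of 28 and a median of -0.05, from -0.15 (without M510F01 replicate 4) to 0.10 (without M510F01 replicate 1). Krt98 was at -0.74 (SE 0.30, and -0.45 without M510F01 replicate 1). It was apart by the small gap between 23.2 in M510F01 replicate 2 and 24.4 in DMSO replicate 4. The groups overlapped for krt18a.1, at -0.43 (SE 0.16), and for krt15, at 0.36 (SE 0.17, and 0.19 without DMSO replicate 4). In the metal handling list, 16 positive of 37 with a median of -0.05 (0.0032 without DMSO replicate 3), the iron hormone hamp was at 0.44 (SE 0.22) and the liver iron sensor tfr2 at -0.54 (SE 0.24). Znf1164, a zinc finger gene, was apart at 69.3 ± 4.56 with M510F01 and 95.7 ± 5.26 with DMSO (SD, n = 4 each; -0.46, SE 0.12), and RF00009 was at -0.47 (SE 0.13).

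**Figure D4:**
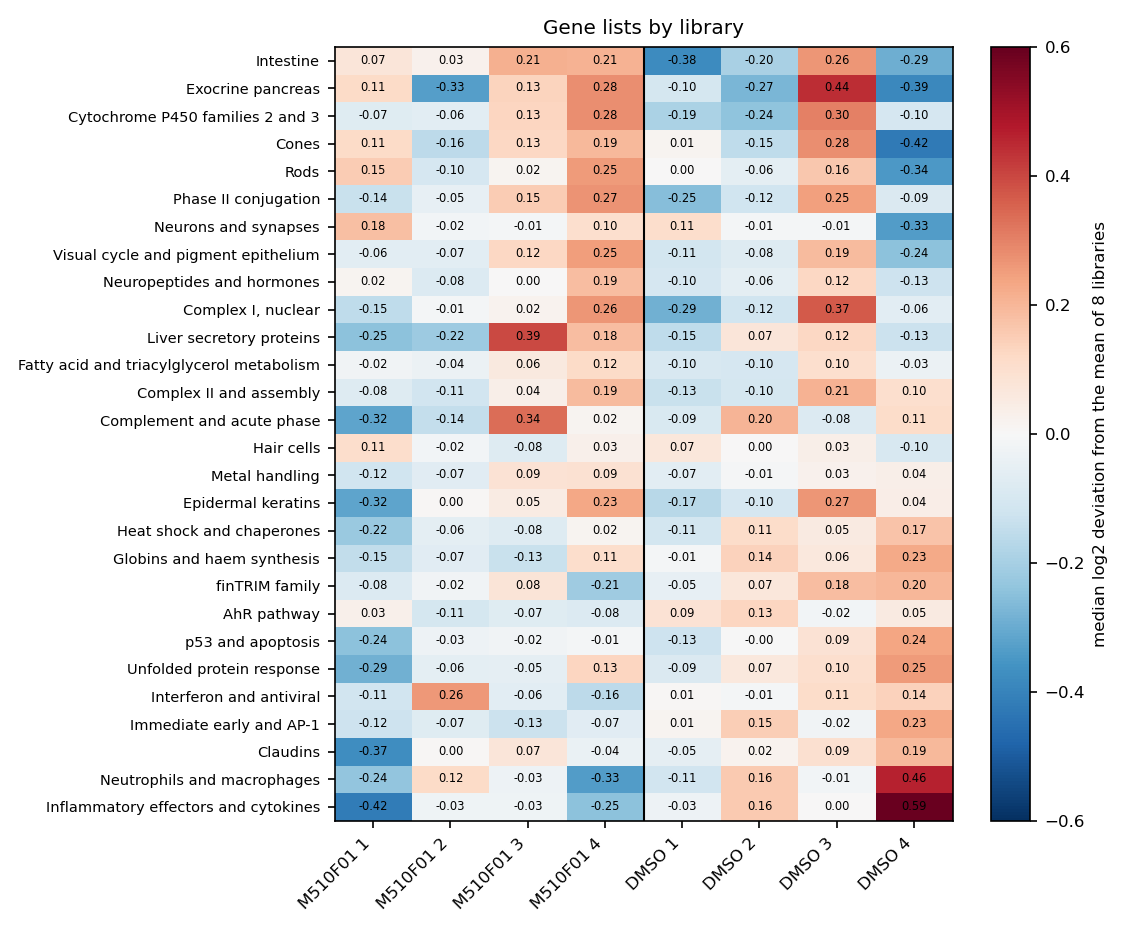
Median over each of 28 gene lists of the log2 deviation of a library from the mean of the 8 libraries, with lists in the order of their median log2 fold change and M510F01 libraries left of DMSO libraries. The inflammatory list runs from -0.42 in M510F01 replicate 1 to 0.59 in DMSO replicate 4, and DMSO replicate 3 has high values for the intestine (0.26), exocrine pancreas (0.44) and complex I (0.37) lists.

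The target enzyme of the parent compound and the classic AhR targets were looked at in every larva group. The flavoprotein subunit gene sdha had 2573, 2585, 2032 and 1736 normalized counts with M510F01 and 2313, 2475, 1808 and 2063 with DMSO, and the DMSO range lay inside that of M510F01. Estimates for sdha, sdhb, sdhc and sdhdb lay between -0.02 and 0.03, and no interval of these 4 genes reached beyond 0.39 in either direction. Sdhda, near the filter limit with 12.1 ± 3.39 with M510F01 and 10.17 ± 1.96 with DMSO (SD, n = 4 each), was at 0.20 (interval -0.46 to 0.86). The assembly factors sdhaf2, sdhaf3 and sdhaf4 were at -0.12, -0.17 and 0.10 (SE 0.11, 0.17 and 0.21). Without DMSO replicate 3 sdhaf3 was at -0.08 and sdhaf4 at 0.29, and the 9 genes of complex II and its assembly had a median of 0.0040. Of 38 nuclear complex I genes tested 33 were positive with a median of 0.07, which was -0.01 without DMSO replicate 1 and 0.19 without DMSO replicate 3.

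Of the cyp1 genes, cyp1b1 had 231, 201, 213 and 385 normalized counts with M510F01 and 320.1, 362, 436 and 325 with DMSO (-0.53, interval -0.95 to -0.10). M510F01 replicate 4 lay among the DMSO libraries and the other 3 below them, and the estimate was -0.74 without it. Cyp1a showed the same order, at 828, 827, 957 and 1999 with M510F01 and 1266, 1386, 2173 and 1212 with DMSO (-0.45, interval -1.06 to 0.15), and its estimate was -0.26 without DMSO replicate 3 and -0.75 when M510F01 replicate 4 was left out. Cyp1c2 was apart at 70.9, 72.8, 84.4 and 60.26 with M510F01 and 95.8, 108, 92.5 and 102 with DMSO (-0.47, SE 0.14). Cyp1c1 was at -0.30 (interval -0.73 to 0.13) and cyp1d1 at 0.06 (interval -0.15 to 0.26). The AhR list of 14 genes had 4 positive estimates and a median of -0.11, which was -0.06 without DMSO replicate 2.

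A direct test of M510F01 against boscalid, at the same concentration and age, was made on all 12 libraries rescaled together. Of 23131 genes 3 passed (0.013%), each higher with M510F01 than with boscalid. Cyp1b1 stood at 233, 202, 213 and 386 normalized counts in M510F01 libraries and at 72.0, 60.296, 85.6 and 74.3 in boscalid libraries on this joint scale (difference 1.77 in log2, interval 1.36 to 2.18, limma adjusted p = 0.0032). In the same fit M510F01 minus DMSO was -0.53 (interval -0.93 to -0.12), so the M510F01 estimate lay between those of boscalid and DMSO. Of the other cyp1 genes, M510F01 minus boscalid was 1.26 for cyp1a (interval 0.69 to 1.82) and 0.96 for cyp1c1 (0.50 to 1.42). It was 0.13 for cyp1c2 (-0.14 to 0.40) and -0.07 for cyp1d1 (-0.26 to 0.11). None of these other cyp1 genes passed (limma adjusted p from 0.617 to 0.854). Locus FP017215.1 had 86.9, 139, 126 and 106 with M510F01 and 11.3, 25.4, 18.1 and 23.4 with boscalid (2.53, interval 2.02 to 3.03, limma adjusted p = 0.0011), and M510F01 minus DMSO was -0.17 (interval -0.67 to 0.33). Locus zgc:165423 had 2336, 2836, 3059 and 2386 with M510F01 and 729, 1174, 1268 and 1385 with boscalid (1.25, interval 0.88 to 1.63, limma adjusted p = 0.044), and M510F01 minus DMSO was 0.04 (interval -0.34 to 0.41). These 2 loci were named because they passed. Genes that stood out against DMSO gave differences from boscalid of -0.16 for fosl1a (interval -1.24 to 0.93), -0.07 for socs3b (-0.76 to 0.61), -0.02 for slc6a19a.2 (-0.33 to 0.29) and 0.31 for dgat1a (0.02 to 0.60). None of these passed (limma adjusted p from 0.842 to 0.976), and the intervals for fosl1a and socs3b leave room for changes well beyond 1.5-fold. For the sdh subunits the differences ran from -0.35 (sdhda, interval -0.90 to 0.21) to 0.11 (sdha, interval -0.21 to 0.43).

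**Figure D5:**
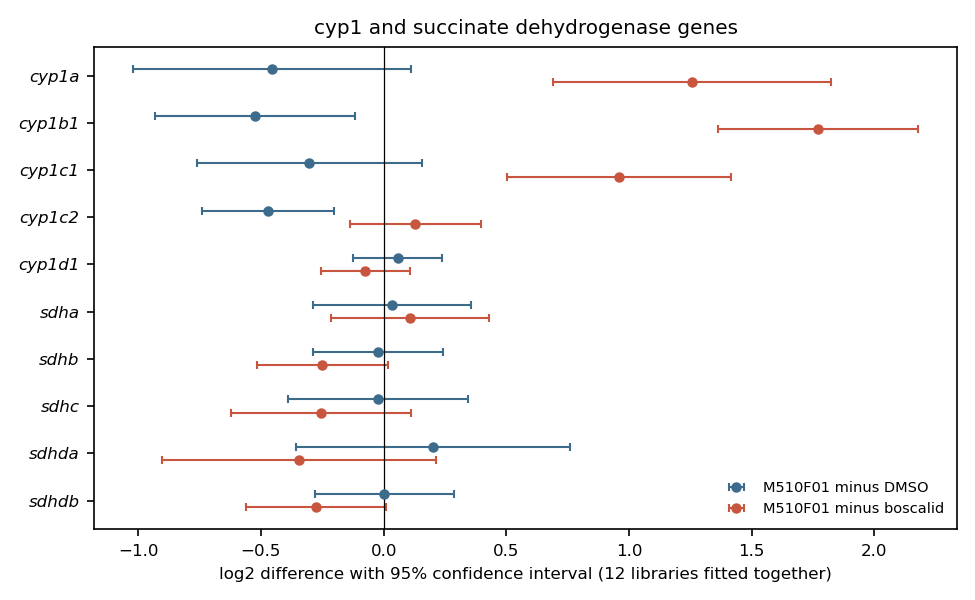
Log2 differences with 95% confidence intervals for 5 cyp1 genes and 5 succinate dehydrogenase genes, M510F01 minus DMSO and M510F01 minus boscalid, from the joint fit of 12 libraries; both comparisons use the same M510F01 libraries. Cyp1b1 is at -0.53 against DMSO and at 1.77 against boscalid, and the succinate dehydrogenase estimates lie between -0.35 and 0.20.

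In the authors' deposited table for M510F01 against DMSO, 0 genes had an adjusted p under 0.05, and the smallest adjusted p was 0.514. The log2 fold changes in the authors' deposited table were -1.96 for fosl1a, -4.01 for lepb, -0.95 for socs3b, 0.66 for gpr39 and 0.48 for dgat1a. The estimates given above are differences of mean log2(normalized count + 1), such as -2.74 for lepb, and are not the same measure. The deposited lepb value therefore says nothing about leaving out DMSO replicate 3.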

How the data were processed

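Stranded libraries were made, per the labels' protocols, from total RNA of whole eleutherolarvae after removal of ribosomal RNA and read as paired ends. Tools named in the submitters' processing notes, none with a version, are FastQC and cutadapt, the aligner STAR, featureCounts and DESeq2. Which build and gene models were used, and whether counting used strand, is not given in the sources used here. The signal values deposited by the authors are normalized counts, gene counts that each library's size factor has divided. Their steps gave back whole reads for 100% of the values of the 8 M510F01 and DMSO libraries at a tolerance of 0.01 reads. Log2 fold changes against DMSO with raw and adjusted p-values were deposited by the authors as well; only values credited to that table come from it.

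M510F01 was compared with DMSO by limma 3.58.1 (trend and robust settings, R 4.3.3) on log2(normalized count + 1), a scale that understates changes of low genes, for genes with a mean of 10 or more, with Benjamini-Hochberg adjustment over all of them and a threshold of 0.05. An SE is that of the log2 fold change. EdgeR 4.0.16 (quasi-likelihood) and DESeq2 1.42.0 were run on the recovered reads, and the steps were tested on simulated data. For M510F01 minus boscalid, 1 joint scale of median-of-ratios size factors was set for the 12 libraries. Python 3.11.15, pandas 2.3.3 and matplotlib 3.10.9 made tables and figures. Replicates differed by a chi-square per gene of 5.43 to 28.3, so none is a copy of another.

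The 54 gene lists (1627 of 1674 entries matched to a gene of the tables), the comparison and the settings were chosen with earlier results of these data known, so lists are described by counts and medians without a test. Symbols came from the authors' table, and older names were matched through the RefSeq gene table of assembly GRCz12tu, used for names only. The rule for naming genes began from those with means of 50 or more and a proper symbol rather than a clone or locus placeholder. From these it took the 12 smallest p-values and the 4 largest changes with separate groups in each direction. Without those limits it added 2 to 4 members of each list described, the sdh subunits, 5 cyp1 genes and cyp3a65. The list members were those with the smallest p-values, so they are extremes of their lists and not typical members. Other settings tried changed the pseudocount, filter, scaling, limma options or test, added the replicate number as block or term, fitted boscalid jointly, or dropped a library.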

Additional observations from a re-analysis of the deposited data

Results flagged for a closer look

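In 264 sets of 4 libraries (132 named genes in both groups), the highest or lowest library stood apart from the other 3 in 20, or 7.58%. Chance alone gives about 1 in 20 for unselected and independent sets. These genes were selected and share the same 8 libraries, so that rate is a rough guide only. DMSO replicate 4 made up 5 of them. It was above the other DMSO libraries for the tight junction gene cldnb (1682, others 856 to 979), the prostaglandin synthase gene ptgs2b (526.1, others 210.5 to 247) and the stress gene trib3 (1054, others 803 to 833). It was also above them for the finTRIM gene ftr34 (17.01, others 14.6 to 14.8), by a gap that is small in counts. For the rhodopsin kinase gene grk1a it was below them (285.9, others 387 to 404). All are normalized counts.

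M510F01 replicate 4 stood above the other M510F01 libraries for cyp1a (1999, others 827 to 957), cyp1b1 (385.3, others 201 to 231), cyp3c3 (316.8, others 185 to 198), hbbe1.1 (1208, others 881 to 918) and trh (103.2, others 69.8 to 74.8). M510F01 replicate 2 was above the others for gpr84 (70.75) and the antigen peptide transporter tap1 (144.5), and below them for the carboxypeptidase cpa4 (490.2) and the guanylate cyclase gucy2d (1151). M510F01 replicate 3 was above for dgat2 (4855) and M510F01 replicate 1 below for rab3b (536.5). DMSO replicate 3 was above the other DMSO libraries for cyp4t8 (239.2), dgat1a (208.7) and diabloa (1343), and DMSO replicate 1 for pi4k2b (222.3).

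Effects of the metabolite and of the parent compound differed by limma in 3 genes, with M510F01 minus boscalid at 1.769 for cyp1b1, 2.527 for FP017215.1 and 1.251 for zgc:165423 on the log2 scale. The part of single libraries in these values was not tested beyond leaving each out in turn.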

How the results depend on the processing

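With 0 genes called against DMSO, the count was also 0 in 20 of the 21 other settings. The count of unadjusted p-values under 0.05, 837 as reported, was 2287 with array quality weights, 1304 of 33139 genes with no filter and 1334 when replicates 1 and 2 were set against 3 and 4 by a term. Dropping a library gave counts from 451, when DMSO replicate 4 was left out, to 1877, when DMSO replicate 3 was. It was 552 without DMSO replicate 2. The 506 genes with separate groups became between 741 (without DMSO replicate 4) and 2141 (without DMSO replicate 3) with 1 library left out, where 3 libraries against 4 separate more easily by construction. The cause of the other shifts was not tested. The 28 list medians gave 560 values under other settings, all within 1 SD of the library medians of that list. That SD exceeded the median itself in lists such as exocrine pancreas (SD 0.32, median 0.16) and cones (SD 0.24, median 0.14). In such lists a median could vanish or change sign and stay within the limit, so the limit says little there. For complex I, complex II, complement, liver proteins, keratins, hair cells and metal handling the sign of a median near 0 turned in some of the values. The named genes stayed below the threshold in 2506 values and passed it in 1; the sign turned in some of them for sdha, sdhb, sdhc, sdhdb and sdhaf4, whose estimates lay near 0.

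With the replicate number as a block, limma called 1 gene, the locus si:ch73-187m15.4 (adjusted p = 0.0366), and found 1294 unadjusted p-values under 0.05. The labels do not say whether the numbers pair the samples. The deviations of same-numbered M510F01 and DMSO libraries correlated at 0.486, 0.0249, 0.0989 and -0.0271 for numbers 1 to 4. Among same-numbered libraries, only those numbered 1 correlated best with each other. So few correlations cannot decide whether libraries of a number share a batch. For M510F01 minus boscalid, 3 genes as reported, DESeq2 called 20 and the fit with the replicate block 8, and leaving out 1 library gave 2 to 3. For genes with means of 10 to 50 the interval reached a median of 0.59 to either side of the estimate. It was 0.27 for genes with means of 200 to 1000. The part of depth in these widths was not tested.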

Other observations

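Of the housekeeping and structural gene lists that belong to no result above, all but the mucus list had medians within the quartiles of all genes tested, -0.10 to 0.11, where 51.3% of genes were positive. Those quartiles are of single genes, which spread more widely than medians of lists, so lying within them says little about a list. Ribosomal protein genes had 44 positive of 94 tested and a median log2 fold change, M510F01 over DMSO, of -0.0052. DNA replication and mitosis genes had 26 positive of 66 (median -0.01), collagens 21 of 57 (-0.04), cartilage and bone 14 of 35 (-0.02), ionocytes 15 of 35 (-0.01) and heart 9 of 28 (-0.04). Skeletal muscle genes had 16 positive of 62 with a median of -0.07, Hox genes 16 of 49 (-0.07) and pigment cell genes 9 of 39 (-0.09). The pigment cell list had 2 unadjusted limma p-values under 0.05 on the lower and 1 on the higher side, against 2.1% and 1.51% of all genes. Lens crystallins had 32 positive of 41 (0.05), myelin genes 13 of 19 (0.10) and glial genes 13 of 19 (0.06). The mucus list had 4 positive of 13 and a median of -0.20.

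Energy metabolism lists were narrowly positive. Of the protein-coding genes of the mitochondrial genome 10 of 12 were positive (median 0.06), of ATP synthase 13 of 17 (0.02), of complexes III and IV 17 of 27 (0.03), of the citric acid cycle 19 of 25 (0.03) and of glycolysis 20 of 32 (0.02). Hypoxia targets had 10 positive of 31 (-0.09), gluconeogenesis and fasting genes 14 of 30 (-0.04) and cholesterol genes 12 of 30 (-0.05). Nrf2 and oxidative stress genes had 18 positive of 36 and a median of -0.0024, with 1 unadjusted p-value under 0.05 in each direction, where all genes had 1.51% on the higher and 2.1% on the lower side. Clock genes had 25 of 42 (0.03), glucocorticoid and stress axis genes 16 of 25 (0.07) and thyroid axis genes 10 of 21 (-0.06). No gene of these lists passed the adjusted threshold by limma.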
